A study of Mus musculus with 4 samples.

Results

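The cells described here are the chondrocytes of the E18.5 mouse hindlimb, chosen as the cells of that library with at least 200 detected genes and at most 10% of their molecular barcodes (UMIs, which count captured transcripts) from mitochondrially encoded genes, at least 50 Col2a1 UMIs per 10000 UMIs of the cell, and at least 1 Acan UMI. The rule found 269 of the 1904 kept E18.5 cells (14.1%, 95% interval 12.6 to 15.8%), out of 9958 kept cells in the 4 libraries of the series. Inside the group, 115 cells with at least 10 Ucma UMIs are called Ucma-high and 154 cells with fewer are called Ucma-low. The series profiled hindlimb cells of C57BL/6 embryos by droplet sequencing of transcript 3′ ends, with 1 library per stage from E11.5 through E13.5 and E15.5 up to E18.5, which the labels tie to limb bud formation, cartilage condensation, joint cavitation and joint morphogenesis. Each library pooled the cells of 6 to 7 pups from 1 litter, untreated and of 1 strain, after digestion with collagenase and pronase, freezing, thawing and removal of dead cells. The same rule applied to the earlier libraries gave 1359 cells at E15.5, 1172 at E13.5 and 0 at E11.5.

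Chondrocytes build cartilage from type II collagen fibrils filled with the proteoglycan aggrecan, the products of Col2a1 and Acan. In a growth plate, resting cells feed columns of dividing cells, which turn on Ihh as they leave division and Col10a1 as they enlarge, while cells next to the joint cavity make lubricin, the product of Prg4. Ucma (upper zone of growth plate and cartilage matrix associated) encodes a small secreted protein with vitamin K dependent glutamate residues, known in mouse from resting cartilage and the upper growth plate, and Fmod encodes fibromodulin, a leucine-rich proteoglycan that binds collagen fibrils.

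With 1 library per stage, no difference could be tested against a spread between animals, so values are given with 95% intervals that cover counting error only. Such intervals take every UMI as independent, so they understate the error of genes that a few cells carry. Levels are counts of a gene scaled to a common total of 1000000 UMIs (CPM), from 2192637 UMIs in the 269 chondrocytes. A gene is called higher or lower where the ratio of CPM is at least 2 in either direction, its interval lies on one side of 1, and both groups together hold at least 20 UMIs. The cells were picked by Col2a1 and Acan and split by Ucma, so every contrast below describes how the chosen cells differ and is no test of it. Median depth was 7234 UMIs in the chondrocytes and 6847 in the other 1635 cells of the library, and the median mitochondrial share was 2.26% and 3.74%. Of the 269 barcodes 1 was also kept in another library. Cells with at least 2 UMIs of a marker of another cell type, out of 10 such markers, numbered 7 among Ucma-high and 7 among Ucma-low cells.

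The cells carried the markers of cartilage. Col2a1, which set the rule, ranged over 54.0, 202 and 658 UMIs per 10000 (lowest, median and highest cell), the highest cell with an Acan UMI left outside stood at 49.7, and 8 such cells lay between 25 and the limit. Only 4 cells passed the Col2a1 limit without an Acan UMI, and 13 of the 269 cells rested on a single Acan UMI. All 12 genes of the chondrocyte marker list were higher than in the rest of the library. The list includes Col2a1 and Acan, whose direction was set by the rule. Among 12865 genes with enough UMIs 1684 were called higher (13.1%) and 2431 lower (18.9%), or 32% in all. Most markers of other lineages were low but not absent. Exceptions, called higher in chondrocytes than in the rest, included Sp7, Ifitm5 and Alpl of the 7 osteoblast markers, whose other 4 were lower. The 8 macrophage and monocyte markers summed to 102 CPM in chondrocytes and 1716 CPM in the rest, the 8 granulocyte and mast cell markers to 156 and 5807 CPM, and the 8 epidermal markers to 104 and 3246 CPM, with Mcpt4 and Kit at 0 UMIs in chondrocytes. Hemoglobin and other erythroid genes gave 1 UMI in all 269 cells.

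Against the rest of the library the cartilage matrix genes stood far apart. All 7 listed collagens of the cartilage fibril were higher, among them Col2a1, whose direction was set by the rule. Col2a1 had 21299.9 CPM in chondrocytes and 136 CPM in the rest (156-fold, 149 to 164). Col9a1, a chain of the type IX collagen that coats the fibril, had 5917 and 38.2 CPM (155-fold, 141 to 170). Col11a1, a chain of its type XI core, had 4198 and 37.1 CPM (113-fold, 103 to 124). Of 19 proteoglycans and matrix adaptors 17 were higher, among them Acan of the rule, and Vcan and Matn2 were lower. The widest ratio among called genes with at least 100 UMIs was that of 3110079O15Rik, now named Snorc, a membrane proteoglycan of chondrocytes, with 3504 CPM in chondrocytes and 13.4 CPM in the rest (260-fold, 224 to 305). Matn1, a matrilin that links matrix filaments, had 4649 and 20.9 CPM (223-fold, 197 to 253), Matn3, a related matrilin, 1867 and 9.71 CPM (192-fold, 161 to 232), and Epyc, the small leucine-rich proteoglycan epiphycan, 1599 and 7.16 CPM (223-fold, 181 to 278). The 10 widest ratios also held Ucma (246-fold, 206 to 296), Mfi2, a transferrin-like protein on chondrocyte membranes (239-fold, 120 to 557), Scrg1 (193-fold, 145 to 262), Ihh, the hedgehog ligand of prehypertrophic cells (181-fold, 107 to 334), and A2m, a protease inhibitor, which rests on 3 UMIs in the rest (195-fold, 64.8 to 960). Part of the level in the rest is also seen in blood cells of the same library: in 113 cells with Ptprc and Tyrobp UMIs, Col2a1 stood at 73.6 CPM and Matn1 at 24.8 CPM.

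The regulators of cartilage followed the matrix. Of 21 measured chondrogenic transcription factors 15 were higher and none lower. Sox9, the factor required for cartilage formation, had 511 CPM in chondrocytes and 41.9 CPM in the rest (12.2-fold, 11 to 13.6), Sox5 and Sox6, its partners, were 13.7-fold (10.7 to 17.7) and 6.23-fold (4.43 to 8.77) higher, and Foxa3, a forkhead factor active in cartilage, had 57.0 and 0.477 CPM (119-fold, 53.3 to 332). Foxa2 was found in 19 chondrocytes and in none of the other cells, at least 45.8-fold higher with the rest set to 3 UMIs. Genes that make and sulfate glycosaminoglycan chains were higher in 16 of 29 cases and lower in 4, led by Papss2, which makes the sulfate donor, with 247 and 3.74 CPM (66.0-fold, 48.9 to 90.9). Genes of collagen folding and secretion were higher in 27 of 51 cases and lower in 1 (Creb3l1), with Plod2, a collagen lysyl hydroxylase, at 340 and 25.8 CPM (13.2-fold, 11.6 to 15.1) and Serpinh1, the collagen chaperone HSP47, at 3691 and 1011 CPM (3.65-fold, 3.55 to 3.75). Imprinted growth genes were higher in 12 of 18 cases and lower in 1, with H19 at 5913 and 1360 CPM (4.35-fold, 4.25 to 4.45). The fibrous matrix list was mixed, with 6 of 33 genes higher and 11 lower: Col1a1 and Col3a1, the interstitial collagens, had 0.228 (0.215 to 0.242) and 0.223 (0.210 to 0.236) of the level in the rest, whereas Dcn, the collagen-binding proteoglycan decorin, at 831 and 675 CPM, was not called. The 13 mitochondrially encoded genes had a median log2 ratio of -0.71 and none was called. The 10 genes lowest relative to the rest were markers or products of pigment, epidermal and myeloid cells and other genes, among them Dct, with 1 UMI in chondrocytes and 894 in the rest (0.00641, 0.000162 to 0.0358), C1qb, with 2 and 1282 UMIs, and Pf4, with 1 and 423 UMIs.

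Ucma was spread unevenly over the chondrocytes. It was found in 191 of the 269 chondrocytes (71.0%, 65.2 to 76.4%) and absent from 78, and the highest cell held 193 UMIs. The 115 Ucma-high cells (42.8% of chondrocytes, 36.8 to 48.9%) held 94.9% of the Ucma UMIs of the group, with 10, 33 and 193 UMIs in the lowest, median and highest cell, against 0, 0 and 9 UMIs in Ucma-low cells. No gap separates the groups at the limit, with 9 cells at 8 or 9 UMIs and 7 cells at 10 or 11. Outside the chondrocytes the share of cells with a Ucma UMI did not exceed that of blood cells, which should lack the gene: it was 5.32% of the rest (4.28 to 6.52%) and 9.73% of the blood cells (4.96 to 16.8%, median depth 6286 UMIs). With each cell thinned to 3000 UMIs and 17 shallower chondrocytes, 110 other cells and 6 blood cells left out, the shares were 60.7% of chondrocytes, 2.49% of the rest and 2.80% of blood cells. Chondrocytes held 97.7% of all Ucma UMIs of the library, and 1 other cell had at least 10, with 29 UMIs, 26124 UMIs in total and 40.6 Col2a1 UMIs per 10000, below the limit.

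**Figure D1:**
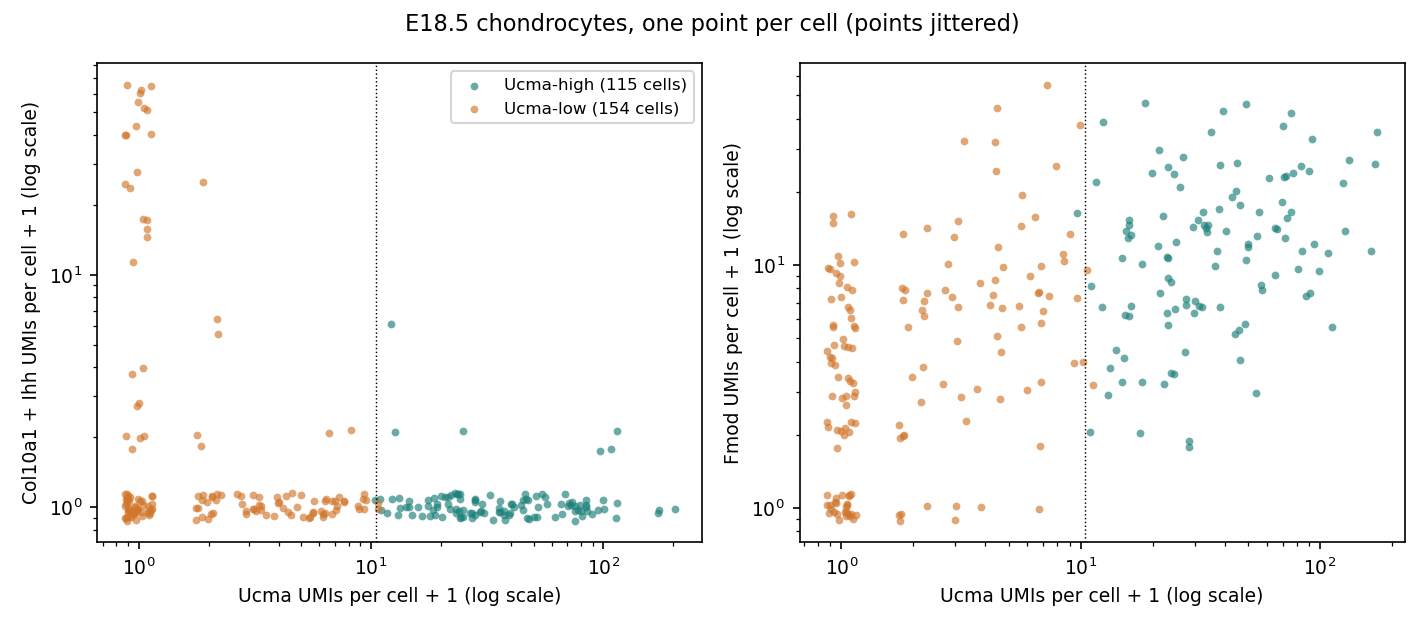
E18.5 chondrocytes, 1 point per cell, with Ucma UMIs plus 1 on the horizontal axis and, on the vertical axis, the sum of Col10a1 and Ihh UMIs plus 1 (left) or Fmod UMIs plus 1 (right), all on log scales; points are slightly displaced to keep them apart, colour marks Ucma-high and Ucma-low cells, and the dotted line marks 10 Ucma UMIs. Cells with many Col10a1 or Ihh UMIs sit at or near 0 Ucma UMIs, while Fmod is found in all 115 Ucma-high cells and in 120 of 154 Ucma-low cells.

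Acan and the fibril genes did not separate Ucma-high from Ucma-low cells by the limit. Acan had 1419 CPM in Ucma-high and 1407 CPM in Ucma-low cells (ratio 1.01, 0.939 to 1.08), Col2a1 25284 and 18035 CPM (1.40, 1.38 to 1.43), Col11a1 3967 and 4387 CPM (0.904, 0.867 to 0.942) and Matn3 1726 and 1983 CPM (0.870, 0.817 to 0.926). None of the 7 fibril collagens, 23 measured genes of glycosaminoglycan synthesis or 51 of collagen folding and secretion was called. Across all genes 193 of 7583 were called higher in Ucma-high cells (2.55%) and 252 lower (3.32%), or 5.87% in all. For 90 of the 193 and 162 of the 252 the call held when the cell with the most UMIs of the gene was left out, an alternative added after seeing that single cells held most UMIs of some genes. Depth and mitochondrial share moved with the split and their part in it was not tested: the median was 8383 UMIs and 1.57% in Ucma-high cells, against 6603 UMIs and 2.77% in Ucma-low cells.

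**Figure D2:**
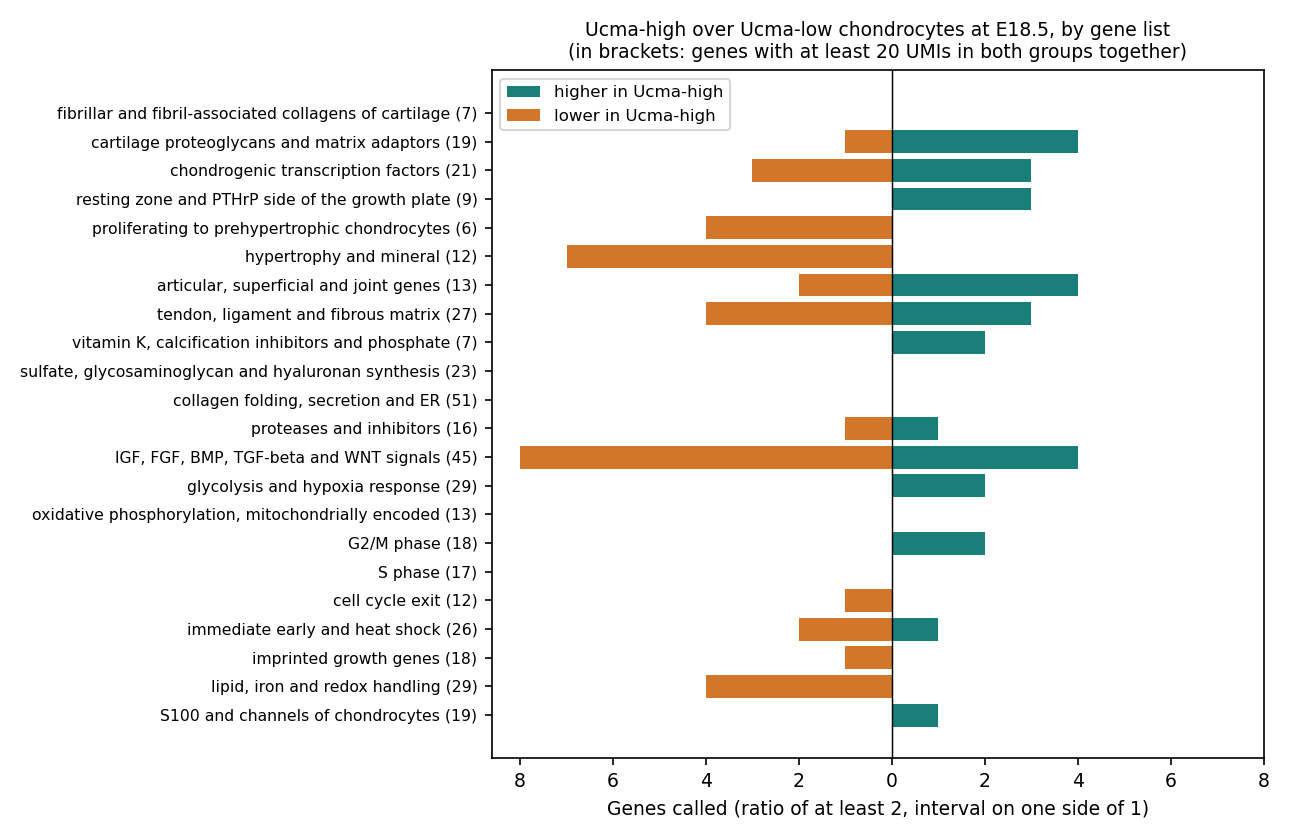
Number of genes called higher (right of 0) or lower (left of 0) in Ucma-high than in Ucma-low chondrocytes at E18.5, for each of 22 gene lists, with the number of genes holding at least 20 UMIs in brackets. The hypertrophy list has 7 genes lower and 0 higher, the list of proliferating to prehypertrophic cells 4 lower and 0 higher, and the resting zone list 3 higher and 0 lower.

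Of the 19 proteoglycans and adaptors, Ucma, Epyc, Fmod and Vcan were higher in Ucma-high cells and Pcolce2 lower. Fmod was found in all 115 Ucma-high cells, with a median of 11 and a highest value of 46 UMIs, and in 120 Ucma-low cells, with a median of 3 and a highest value of 49; the summed levels were 1537 and 708 CPM (2.17-fold, 1.996 to 2.36). The ranges over cells overlap almost fully, so the difference is one of typical level. The log2 ratio of Fmod, 1.12, lay close to the limit of 1, and the call was lost at 0.94 without the 5% deepest cells, at 0.99 with a limit of 20 Ucma UMIs, at 0.61 among members with Xist and no Y-linked UMI, and at 0.88 as a mean over cells. Epyc had a median of 13 and a highest value of 107 UMIs in Ucma-high cells, against 1 and 64 in Ucma-low cells, and 2376 against 963 CPM (2.47-fold, 2.3 to 2.65). Bgn, the proteoglycan biglycan, stayed just under the limit with 3001 and 1556 CPM (1.93-fold, 1.82 to 2.04). Vcan rests on 25 UMIs in 22 Ucma-high cells and 15 UMIs in 15 Ucma-low cells, and its call was lost without its top cell (1.87-fold). Pcolce2, which enhances procollagen processing, had 268 and 795 CPM (0.338, 0.294 to 0.387).

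Among called genes with at least 100 UMIs, those with the widest ratio in favour of Ucma-high cells, after Ucma itself, included secreted and surface proteins. A2m had 90 UMIs in 41 Ucma-high cells and 12 UMIs in 11 Ucma-low cells (9.15-fold, 4.99 to 18.4). Srpx2, a secreted sushi-domain protein, had 213 UMIs in 73 cells (63.5%, 54.0 to 72.3%) and 36 UMIs in 20 cells (12.99%, 8.12 to 19.3%), a 7.22-fold difference (5.05 to 10.6). With cells thinned to 3000 UMIs, Srpx2 was found in 45.0% of Ucma-high, 9.93% of Ucma-low and none of 107 blood cells, and a limit of 3 counts allows up to 2.80% there. Cxcl14, a chemokine, had 100 UMIs in 44 cells and 31 UMIs in 13 cells (3.94-fold, 2.61 to 6.10), and Car9, a carbonic anhydrase of the hypoxia response, had 76 UMIs in 52 cells and 24 UMIs in 19 cells (3.86-fold, 2.41 to 6.396). The UMIs of A2m, Srpx2 and Car9 were spread over many cells, and without the top cell the ratios were 8.24, 6.92 and 3.66. For Cxcl14, 1 Ucma-low cell held 13 of the 31 UMIs of that side, and the ratio was 6.78 without it. The other 5 genes among these 10 widest ratios were carried by 1 cell each: that cell held 106 of 133 Lyz2 UMIs, 212 of 234 Acta2 UMIs, 83 of 112 S100a8 UMIs, 66 of 96 S100a9 UMIs and 60 of 78 Myl9 UMIs of the Ucma-high group. Without that cell the ratios of these myeloid and smooth muscle genes were 2.06 for Lyz2, 0.597 for Acta2, 1.36 for S100a8, 0.990 for S100a9 and 0.757 for Myl9.

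Of 9 measured genes of the resting zone list 3 were higher and none lower: Scrg1 had 1042 CPM in Ucma-high and 516 CPM in Ucma-low cells (2.02-fold, 1.83 to 2.23), Gas1, a hedgehog co-receptor and growth arrest gene, 170 and 82.1 CPM (2.07-fold, 1.61 to 2.68), and Grem1, a secreted BMP antagonist, 35.4 and 12.4 CPM (2.85-fold, 1.52 to 5.61). Without their top cells Scrg1 and Gas1 fell just under 2, at 1.93 and 1.81. Pthlh, which encodes the PTHrP signal of the resting zone, rests on 19 UMIs in 16 Ucma-high cells and 33 UMIs in 26 Ucma-low cells and was not called (0.703, 0.377 to 1.27). Among transcription factors Shox2, a homeobox gene of limb cartilage, had 77 UMIs in 41 Ucma-high cells and 20 UMIs in 9 Ucma-low cells (4.70-fold, 2.84 to 8.12), and Pitx1, the hindlimb identity factor, 103 UMIs in 58 cells and 60 UMIs in 45 cells (2.10-fold, 1.51 to 2.93). Sox9, Sox5 and Sox6 did not differ by the limit, with ratios of 0.917 (0.813 to 1.03), 1.03 (0.783 to 1.35) and 0.908 (0.556 to 1.47). Of the signal list, Sfrp1, a secreted WNT inhibitor, had 126 and 44.8 CPM (2.80-fold, 2.02 to 3.93), and Igfbp7, an IGF-binding protein, 823 and 373 CPM (2.20-fold, 1.96 to 2.48). Gas6, itself a vitamin K dependent protein, and Nt5e, which makes adenosine, were the 2 of 7 genes called in the list of vitamin K and calcification genes, on 15 and 28 UMIs in Ucma-high cells, against 5 and 12 in Ucma-low cells.

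Col10a1 and Ihh lay almost wholly in Ucma-low cells. Col10a1, the collagen of hypertrophic cartilage, had 1 UMI in 1 Ucma-high cell and 351 UMIs in 24 Ucma-low cells, with at most 56 in a cell (0.00348, 8.78e-05 to 0.0195). Ihh had 10 UMIs in 5 Ucma-high cells and 432 UMIs in 30 Ucma-low cells, with at most 62 in a cell (0.0283, 0.0135 to 0.0525). These cells form a small tail of the group: 25 chondrocytes held at least 3 UMIs of Col10a1 or Ihh, 1 of them Ucma-high and 24 Ucma-low, and their median Ucma count was 0 UMIs and their highest 10. In the list of hypertrophy and mineral genes 7 of 12 measured members were lower in Ucma-high cells and none higher. Panx3, a membrane channel of prehypertrophic cells, had 3 and 95 UMIs (0.0385, 0.00781 to 0.116), Smpd3, a sphingomyelinase of mineralizing cartilage, 6 and 148 UMIs (0.0495, 0.0179 to 0.110), Sp7, the osteoblast and late chondrocyte factor osterix, 4 and 44 UMIs (0.111, 0.0290 to 0.305), and Alpl, the alkaline phosphatase of mineralization, 0 and 43 UMIs, at least 11.7-fold lower with 3 UMIs set in Ucma-high cells. Cd200 and Sgms2 were the other members called lower. In the list of proliferating to prehypertrophic cells Ihh, Prkg2, Ppa1 and Pth1r were lower out of 6 measured and none higher, with Pth1r, the PTHrP receptor, at 93.2 and 378 CPM (0.247, 0.195 to 0.309) and Ppa1, a pyrophosphatase, at 142 and 649 CPM (0.218, 0.181 to 0.262). Runx2 and Runx3, the factors that drive hypertrophy, were at 0.181 (0.0743 to 0.382) and 0.207 (0.0943 to 0.408) of their Ucma-low level, and Mef2c, a factor acting before them, at 0.318 (0.239 to 0.419). The 7 osteoblast markers, which include Sp7 and Alpl, summed to 18 UMIs in Ucma-high and 149 in Ucma-low cells, with Dmp1 at 0 in both. A single Ucma-low cell held 27 of the 149.

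Of 45 measured genes of the signal list 8 were lower in Ucma-high cells and 4 higher. Wnt4 and Wnt5b, WNT ligands of prehypertrophic cartilage, had 9 and 6 UMIs in Ucma-high cells, against 59 and 32 in Ucma-low cells, and Chrdl1, a BMP antagonist, 1 and 60 UMIs (0.0203, 0.000507 to 0.118). Bmp7 and Tgfb2 stood at 0.287 (0.115 to 0.632) and 0.441 (0.270 to 0.699). Serinc5, Ccdc80, Cd200, Dhx58os and Lgmn completed the 10 lowest ratios among called genes with at least 100 UMIs, with values between 0.0535 for Serinc5 and 0.237 for Lgmn, an asparaginyl endopeptidase. Fn1, fibronectin, had 123 and 435 CPM (0.282, 0.229 to 0.344), with at most 6 UMIs in a Ucma-high cell and 37 in a Ucma-low cell.

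When the Ucma-low cells with any Col10a1 or Ihh UMI were left out, an alternative chosen after seeing the data, 120 Ucma-low cells remained and several contrasts changed. Of 6881 genes 129 were then higher in Ucma-high cells (1.87%) and 172 lower (2.5%), or 4.37% in all. Pth1r moved to a ratio of 0.876, Fn1 to 1.18, Ppa1 to 1.08 and Mef2c to 0.800, and none of these was called. Epyc (2.13), Srpx2 (5.33), A2m (8.00), Shox2 (3.62), Grem1 (2.15), Dcn (2.03), Sfrp1 (2.11) and Car9 (2.53) were still called higher, and Runx2 (0.267), Runx3 (0.258) and Hspa1a (0.237) lower. Fmod (1.55), Scrg1 (1.88), Gas1 (1.49) and Igfbp7 (1.52) fell under the limit. Pthlh became lower in Ucma-high cells, at 0.490. Of 40 measured signal genes 2 were then lower (Bmp7 and Id3) and 1 higher (Sfrp1), and of 6 measured hypertrophy and mineral genes none was lower and 1 higher (Slc20a1). The filter took cells with Col10a1 or Ihh from the Ucma-low side only, so the outcome for both genes was fixed by it. It also removed the UMIs of other genes in the same cells, so the fewer lower calls are partly set by the filter and test nothing.

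**Figure D3:**
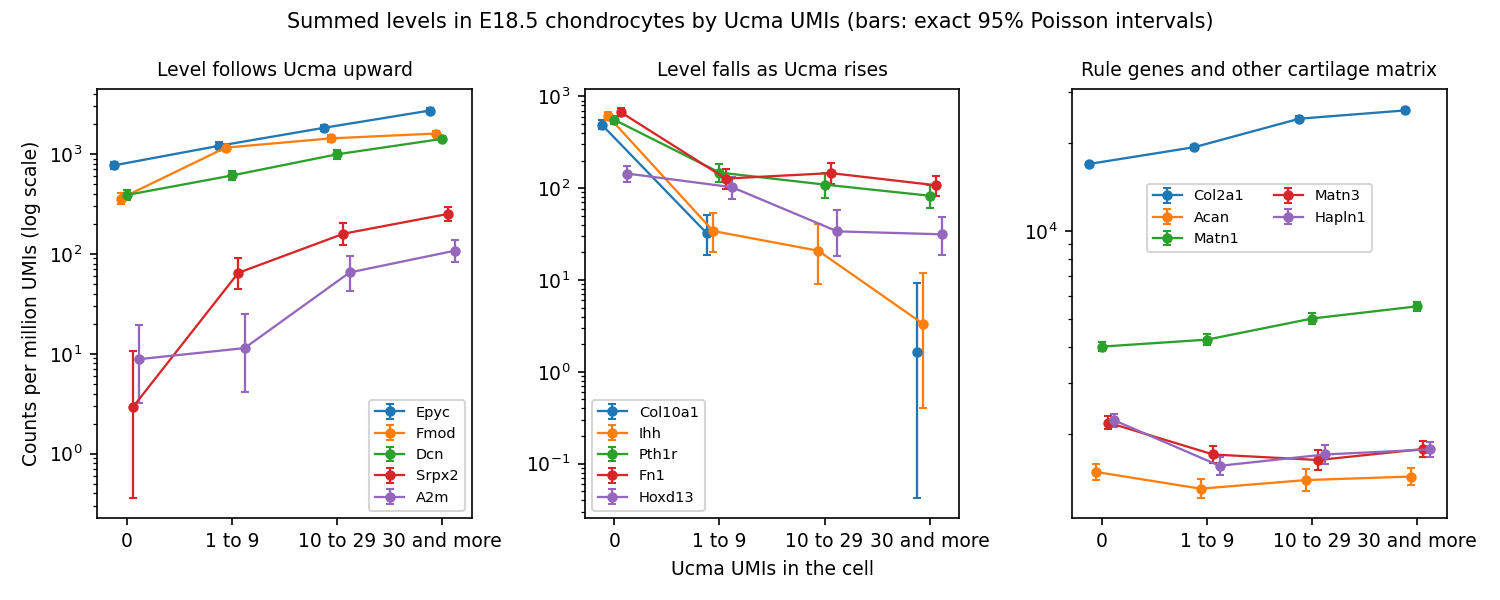
Summed levels in E18.5 chondrocytes (CPM, log scale) against the Ucma UMIs of the cell, in bins of 78, 76, 52 and 63 cells from left to right, with exact 95% Poisson intervals as bars; a level of 0, that of Col10a1 at 10 to 29 Ucma UMIs, is not drawn. Epyc, Fmod and Dcn are higher in each further bin, Col10a1 and Ihh are largely in the bin with 0 Ucma UMIs, and Acan stays between 1303 and 1488 CPM.

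Over 4 bins of Ucma, the summed levels split into graded and stepped patterns. The bin of 100 and more UMIs held 8 cells and was merged into the one below. Epyc had 771, 1209.8, 1833 and 2721 CPM at 0, 1 to 9, 10 to 29 and 30 and more Ucma UMIs. Dcn ran over 389, 609.7, 993 and 1417 CPM, so the summed levels of both genes were graded along the whole range. The number of cells with an Epyc UMI was 46 of 78, 36 of 76, 35 of 52 and 55 of 63, and its share was lowest in the second bin. Srpx2 had 2.95 CPM in cells without Ucma and 64.6, 159 and 252 CPM in the others, so it was higher in each further bin. Its widest ratio between neighbouring bins lay at the first Ucma UMIs and rests on 2 UMIs in cells without Ucma. Fmod had 358 CPM and then 1159, 1434 and 1603 CPM, with its main step at the first Ucma UMIs. Pth1r (556 CPM in the first bin, and 148, 109 and 82.8 CPM after it), Fn1 (673, 127, 146 and 108 CPM) and Ihh (610, 34.2, 20.9 and 3.31 CPM) had their step at the same place, in the other direction. The bins differed in depth, with medians of 7127.5, 6169.5, 6269.5 and 9157 UMIs per cell, lowest in the second bin, and Acan, at 1488, 1303, 1395 and 1434 CPM, followed no direction.

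The 250 bases before the start of transcription are shown for the gene that splits the group, for Epyc and for Col10a1. The summed level of Epyc rose with Ucma, and Col10a1 is the gene of the opposite end. The sequences are from RefSeq on GRCm38.p6, 5′ to 3′ on the gene's strand. Capitals mark ACAAAG or ACAATG on either strand, letters that SOX proteins can bind, and TATAAA on the gene's strand. The windows are chr2:4975872-4976121 (+) for Ucma, chr10:97643818-97644067 (+) for the first of 2 listed Epyc starts and chr10:34389731-34389980 (+) for Col10a1.
Ucma: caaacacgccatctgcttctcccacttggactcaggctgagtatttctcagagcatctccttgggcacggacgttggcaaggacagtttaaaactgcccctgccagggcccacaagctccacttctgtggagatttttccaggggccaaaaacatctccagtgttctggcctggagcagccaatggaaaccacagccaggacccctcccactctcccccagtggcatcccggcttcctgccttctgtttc
Epyc: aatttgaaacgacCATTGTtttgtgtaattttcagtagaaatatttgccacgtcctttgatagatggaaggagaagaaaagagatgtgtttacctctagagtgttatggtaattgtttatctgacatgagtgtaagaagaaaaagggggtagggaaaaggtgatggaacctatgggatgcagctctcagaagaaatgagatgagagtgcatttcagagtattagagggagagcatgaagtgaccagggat
Col10a1: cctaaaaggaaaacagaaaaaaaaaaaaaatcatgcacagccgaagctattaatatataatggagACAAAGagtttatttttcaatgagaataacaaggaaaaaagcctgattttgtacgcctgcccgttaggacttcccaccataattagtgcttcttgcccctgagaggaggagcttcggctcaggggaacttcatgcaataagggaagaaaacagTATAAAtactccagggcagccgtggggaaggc
The Ucma window held none of these letters. The Epyc window shown held CATTGT 237 bases before the start, and the Col10a1 window held ACAAAG 185 bases and TATAAA 32 bases before the start. The window of the second listed Epyc start, not shown, held CATTGT 209 and 202 bases and ACAAAG 147 bases before that start. Which Epyc start these cells use was not tested. The SOX letters occur in 25.2% and TATAAA in 7.59% of 32851 such windows, and a match describes these letters only.

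Joint and fibrous genes were split between the sides. In the list of articular, superficial and joint genes 4 of 13 measured members were higher in Ucma-high cells and 2 lower. Sfrp2, a secreted WNT modulator, had 83 UMIs in 32 Ucma-high cells and 8 UMIs in 7 Ucma-low cells (12.7-fold, 6.14 to 30.3), and Gdf5, the growth factor of the joint interzone, 54 UMIs in 29 cells and 11 UMIs in 7 cells (5.99-fold, 3.10 to 12.7). Prg4 was confined to few cells: 104 UMIs in 7 Ucma-high cells, with 48 in 1 of them, and 43 UMIs in 6 Ucma-low cells (2.95-fold, 2.05 to 4.32). The ratio was 1.59 and no longer called without the top cell, and among members with Xist and no Y-linked UMI Prg4 was called lower in Ucma-high cells, at a log2 ratio of -1.49. Lubricin-producing cells were found at both Ucma levels. Of 11 cells with at least 3 Prg4 UMIs, 6 were Ucma-high and 5 Ucma-low, and none held 3 UMIs of Col10a1 or Ihh. Nog and Ptgis were lower, with Nog, the BMP antagonist noggin, at 48.6 and 115 CPM (0.421, 0.297 to 0.589). In the fibrous list 3 of 27 members were higher (Postn, Dcn and Tnc) and 4 lower (Fbln2, Fn1, Aspn and Col6a3). Dcn had 1253 CPM in Ucma-high and 485 CPM in Ucma-low cells (2.58-fold, 2.34 to 2.85), while Postn, periostin, rested on 1 cell with 41 of its 100 UMIs (3.05-fold, and 1.80 without that cell). Of the 10 fibroblast markers, which include Dcn, the sum was 3112 and 2016 CPM, with Dpt and Pi16 at 0 in Ucma-high cells.

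Cell cycle and stress genes gave few calls. G2/M genes had a median log2 ratio of 0.56 over 18 genes, with Ccnb1 and Cenpe higher and none lower, and the 17 measured S phase genes had a median of 0.33 and no call. Mki67 had 40 UMIs in 18 Ucma-high cells and 42 UMIs in 17 Ucma-low cells (1.16, 0.735 to 1.84), and Ccnd1, cyclin D1, was lower at 42.5 and 96.3 CPM (0.442, 0.303 to 0.634). Hspa1a, an inducible heat shock gene, had 701 and 2698 UMIs, or 710 and 2239 CPM (0.317, 0.291 to 0.345), and the related Hspa1b 82 and 209 UMIs (0.479, 0.366 to 0.621). Reads of these near-identical copies may have been shared between them. The 13 mitochondrially encoded genes had a median log2 ratio of -0.69 and no call.

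The E15.5 library comes from another litter. Its chondrocytes were picked by the same Col2a1 and Acan rule and split by their own Ucma UMIs, 78 cells with at least 3 against 1056 with 0. Cells between these limits were left out. Of 192 genes other than Ucma that were higher in Ucma-high cells at E18.5, 181 were measured at E15.5, where 125 had a ratio above 1 (69.1%, against 45.1% of all 11697 genes), 23 were called higher and 5 lower. Of 252 genes lower at E18.5, 247 were measured, of which 57 were called lower and 0 higher. Among these 247, 186 had a ratio below 1 and 61 above 1 (24.7%, against 45.1% of all genes). In that split 178 of all genes were called higher (1.52%) and 243 lower (2.08%), or 3.6% in all. Col10a1 (0.0152, 0.00784 to 0.0265), Ihh (0.0987, 0.0584 to 0.156), Panx3 (0.168, 0.101 to 0.264), Pth1r (0.393, 0.320 to 0.479) and Fn1 (0.189, 0.135 to 0.257) were lower in Ucma-positive cells at E15.5 as well. Fmod (2.86-fold, 2.53 to 3.22), Dcn (2.12-fold, 1.80 to 2.50), Bgn (2.57-fold, 2.31 to 2.86), Igfbp7 (4.13-fold, 3.24 to 5.23), Car9 (2.26-fold, 1.35 to 3.61) and Sfrp2 (2.16-fold, 1.37 to 3.30) were higher. Gdf5, higher in Ucma-high cells at E18.5, lay on the other side at E15.5, with a log2 ratio of -1.16. Srpx2 and Prg4 held too few UMIs in these E15.5 cells to be measured. Epyc (1.45-fold, 1.38 to 1.53) and Shox2 (1.54-fold, 1.25 to 1.87) were above 1 without reaching the limit, A2m (1.32, 0.750 to 2.18) and Cxcl14 (0.945, 0.541 to 1.55) were not called, and Pthlh, not called at E18.5, was 3.20-fold higher (2.02 to 4.92). Median depth was 13434 UMIs in the Ucma-positive and 11521 in the Ucma-negative E15.5 cells.

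**Figure D4:**
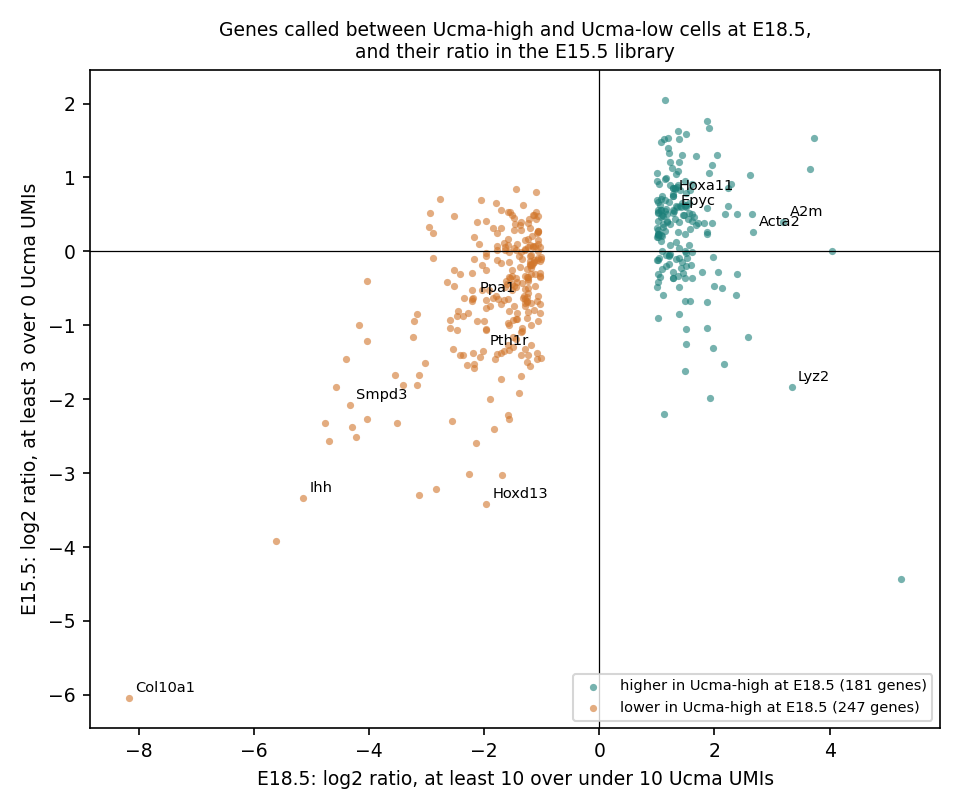
Genes called between Ucma-high and Ucma-low chondrocytes at E18.5, 1 point per gene, with the log2 ratio at E18.5 on the horizontal axis and the log2 ratio of E15.5 chondrocytes with at least 3 over those with 0 Ucma UMIs on the vertical axis. Of the 181 genes higher at E18.5, 125 lie above 0 at E15.5, and of the 247 lower at E18.5, 186 lie below 0. Of all 11697 genes measured at E15.5, 45.1% had a ratio above 1.

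The share of Ucma-rich chondrocytes differed across stages. Cells with at least 10 Ucma UMIs made up 1 of 1172 chondrocytes at E13.5 (0.0853%), 12 of 1359 at E15.5 (0.883%, 0.457 to 1.54%) and 115 of 269 at E18.5 (42.8%), although the E18.5 cells were the shallowest, with median depths of 15632.5, 11928 and 7234 UMIs. Thinned to 3000 UMIs per cell, 4.52%, 9.86% and 60.7% of chondrocytes held a Ucma UMI, and unthinned 16.9%, 22.3% and 71.0%. The summed level was 16.6, 43.6 and 2466 CPM, and in the rest of each library 4.51, 0.987 and 10.0 CPM. Each stage is 1 library, so stage, litter and library preparation cannot be told apart in any of these contrasts. The rest of a library is also no fixed mix of cells and includes cells with cartilage genes below the Col2a1 limit. With cells thinned to 3000 UMIs, Acan was found in 23.3%, 17.1% and 2.95% of the rest at E13.5, E15.5 and E18.5.

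**Figure D5:**
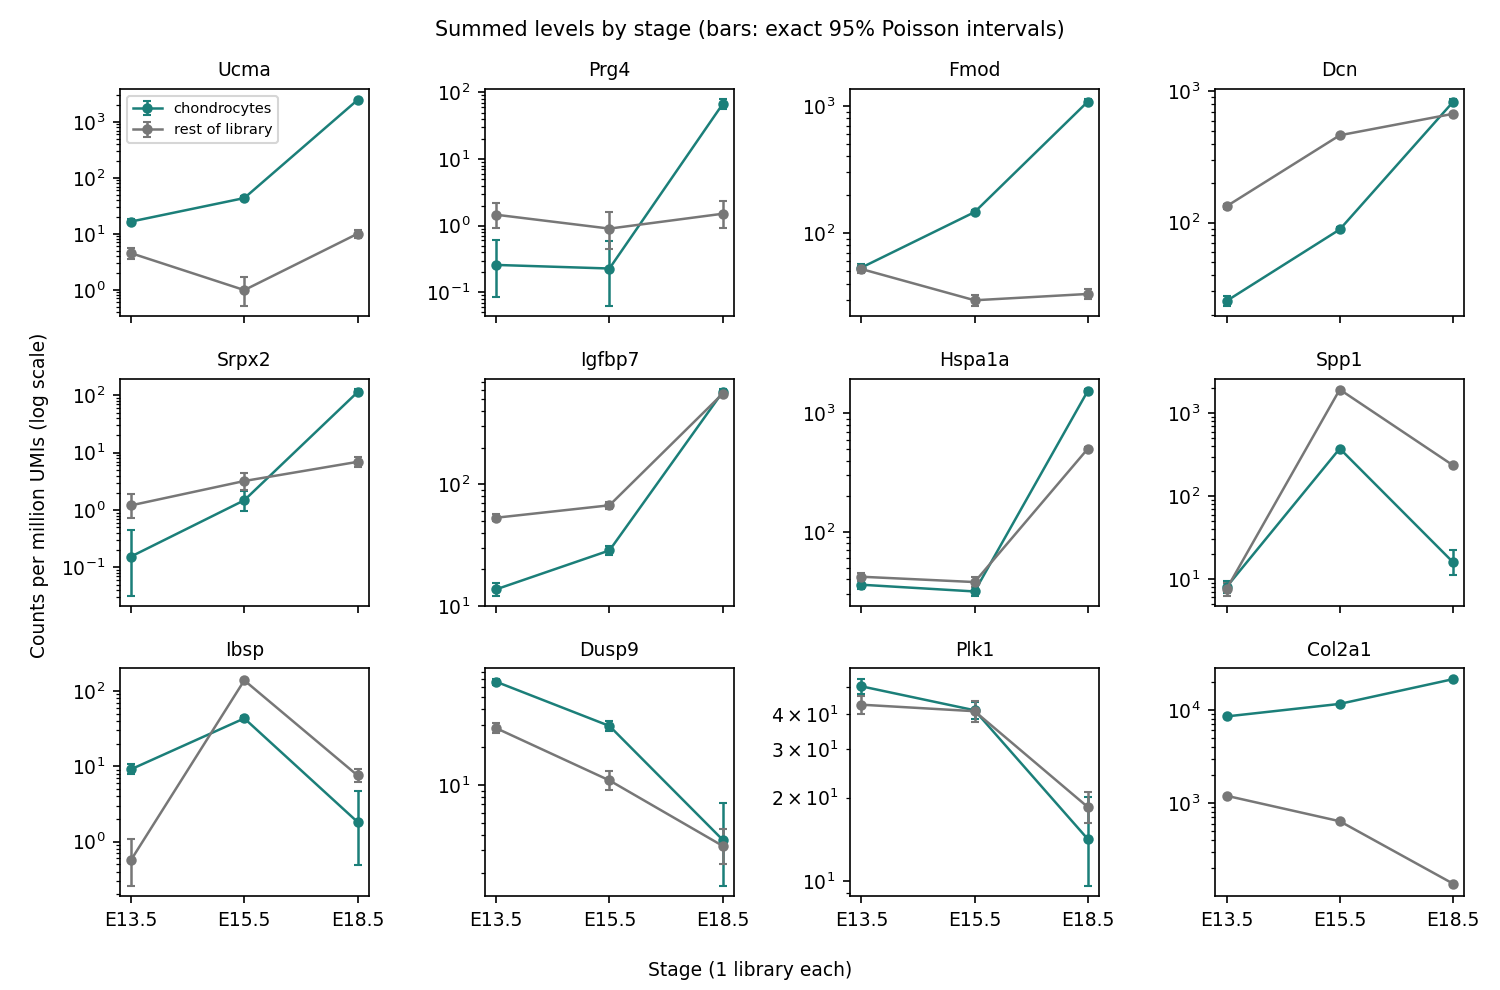
Levels of 12 genes (CPM, log scale) in the chondrocytes and in the rest of the library at E13.5, E15.5 and E18.5, 1 library each, with exact 95% Poisson intervals as bars. Ucma, Prg4, Fmod and Srpx2 are highest in E18.5 chondrocytes, Hspa1a and Igfbp7 are highest at E18.5 both in chondrocytes and in the rest, and Spp1 and Ibsp are highest at E15.5 in both.

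Against E15.5 chondrocytes, 701 of 12307 genes were called higher at E18.5 (5.7%) and 416 lower (3.38%), or 9.08% in all, and against E13.5 chondrocytes 1031 of 12186 higher (8.46%) and 627 lower (5.15%), or 13.6% in all. The E18.5 cells are the same in both contrasts, so the 2 counts are not independent. None of the 7 fibril collagens differed from E15.5 by the limit, and Col2a1, Col9a1 and Col9a2 were called higher against E13.5. Col2a1, by which the cells of each library were picked, had 8481, 11560.4 and 21299.9 CPM at E13.5, E15.5 and E18.5. With a rule of at least 100 Col2a1 UMIs per 10000 its log2 ratio against E13.5 was 0.81, and the call was lost. Acan had 1166, 1417 and 1412 CPM, Matn1 3603, 3718 and 4649 CPM and Epyc 1501, 1255 and 1599 CPM, and none of these was called. Of the 19 proteoglycans and adaptors 4 were higher against E15.5 and none lower: Ucma (56.6-fold, 52.5 to 61.1), Fmod, at 53.5, 146 and 1081 CPM over the stages (7.40-fold against E15.5, 7.00 to 7.83), Comp, the cartilage oligomeric matrix protein, at 543, 797 and 1804 CPM (2.26-fold, 2.19 to 2.35), and Chadl. Against E13.5 7 of the 19 were higher and none lower, these 4 and Matn3, Pcolce2 and Chad.

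Among the 22 gene lists the fibrous matrix and resting zone lists held the largest shares of genes higher at E18.5. In the fibrous list 21 of 31 measured genes were higher against E15.5 and none lower. Dcn had 25.4, 88.9 and 831 CPM at E13.5, E15.5 and E18.5 (9.35-fold against E15.5, 8.73 to 10.0), Bgn 69.2, 181 and 2206 CPM (12.2-fold, 11.7 to 12.7), Ogn, osteoglycin, 1.75, 3.13 and 40.6 CPM (12.96-fold, 9.16 to 18.5), and Col1a1 51.1, 96.8 and 511 CPM (5.28-fold, 4.89 to 5.69). The rest of the library moved in the same direction by less for Dcn (1.46-fold), Bgn (2.28-fold), Ogn (1.28-fold) and Col1a1 (3.05-fold). The 10 fibroblast markers, which share Dcn and Col1a1, summed to 2510 CPM in E18.5 and 801 CPM in E15.5 chondrocytes, and their part in the contrast was not tested. In the resting zone list 8 of 10 genes were higher against E15.5 and none lower: Grem1 had 1.08, 2.56 and 22.8 CPM (8.90-fold, 5.83 to 13.6), Sfrp5, a WNT inhibitor, 11.6, 12.9 and 53.8 CPM (4.18-fold, 3.32 to 5.25), Wif1, another, 18.5, 30.5 and 153 CPM (5.01-fold, 4.35 to 5.75), and Pthlh 3.45, 9.11 and 23.7 CPM (2.60-fold, 1.87 to 3.58). In the rest of the library Grem1, Sfrp5 and Pthlh were lower at E18.5 than at E15.5, at 0.439, 0.125 and 0.805 of the E15.5 level. Srpx2, which followed Ucma inside the group, had 3, 26 and 249 UMIs at E13.5, E15.5 and E18.5 (76.7-fold against E15.5, 51.1 to 120).

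Joint genes were higher in 10 of 22 measured cases against E15.5 and lower in 1, Pdgfra. Prg4 had the widest ratio among called genes with at least 100 UMIs, with 147 UMIs in 13 E18.5 chondrocytes and 4 UMIs in 4 E15.5 chondrocytes (294-fold, 113 to 1095, and 198-fold without its top cell). In the rest of the library Prg4 changed little, with 1.51 CPM at E18.5 and 0.904 CPM at E15.5. Gdf5 was 3.04-fold higher (2.25 to 4.07), while in the rest it stood at 0.875 CPM at E18.5 and 31.2 CPM at E15.5. Cilp, the cartilage intermediate layer protein, had 21 UMIs at E18.5 and 0 at E15.5, at least 56.1-fold higher with 3 UMIs set at E15.5.

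Several of the widest ratios were shared with the other cells of the library. Hspa1a had 35.8, 31.4 and 1550.2 CPM in chondrocytes at E13.5, E15.5 and E18.5 and 41.9, 37.7 and 503 CPM in the rest, so the E18.5 level was 49.3-fold (45.1 to 54.1) and 13.3-fold that of E15.5. In the list of immediate early and heat shock genes 13 of 27 were higher against E15.5 and none lower, among them Hspa1b (77.7-fold), Hspb1 (9.86-fold) and Atf3 (4.45-fold); in the rest Hspa1b was 7.21-fold, Hspb1 2.45-fold and Atf3 3.27-fold higher. These genes are known to respond to cell stress. Igfbp7 (20.1-fold, 18.1 to 22.3) was 8.28-fold higher in the rest. S100a8, S100a9, Rgs5 and Acta2, markers of granulocytes and vessel wall cells, were 26.3-fold, 46.3-fold, 50.2-fold and 22.8-fold higher in chondrocytes and 10.3-fold, 18.9-fold, 25.4-fold and 5.22-fold in the rest, and Msmp, a small secreted protein, 32.5-fold in chondrocytes and 661-fold in the rest. Without their top cells these ratios in chondrocytes were 10.5 for S100a8, 23.3 for S100a9, 31.0 for Rgs5, 5.48 for Acta2 and 8.75 for Msmp.

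The list of hypertrophy and mineral genes was mixed across stages. Against E15.5, Ibsp, Spp1, Mmp13 and Col10a1 were lower and Vegfa and Alpl higher among 16 measured, with a median log2 ratio of -0.02. Against E13.5, Alpl, Vegfa, Enpp1 and Ank were higher and Ibsp, Panx3, Sgms2 and Smpd3 lower among 13 measured, with a median log2 ratio of 0.67. Col10a1 had 123, 573 and 161 CPM at E13.5, E15.5 and E18.5 (0.280 of the E15.5 level, 0.251 to 0.312), while Ihh was 146, 138 and 202 CPM and was not called. Spp1, osteopontin, had 35 UMIs at E18.5 and 6582 UMIs at E15.5 (0.0426, 0.0296 to 0.0593), Ibsp, bone sialoprotein, 4 and 759 UMIs (0.0422, 0.0115 to 0.109), and Mmp13, a collagenase of late hypertrophic cells and osteoblasts, 2 and 125 UMIs (0.128, 0.0153 to 0.473). The rest of the library moved the same way, with Spp1, Ibsp, Mmp13 and Col10a1 at 0.122, 0.0548, 0.0508 and 0.00281 of their E15.5 level there. Sox10, a neural crest and Schwann cell factor, had 1 UMI in E18.5 and 119 UMIs in E15.5 chondrocytes (0.0673, 0.00169 to 0.382), Dusp9, a MAP kinase phosphatase, 8 and 518 UMIs (0.124, 0.0531 to 0.246), and Uts2b, a urotensin peptide gene, 5 and 502 UMIs (0.0798, 0.0258 to 0.187). Of 18 G2/M genes 6 were lower against E15.5 and none higher, with Plk1, a mitotic kinase, at 14.1 and 41.3 CPM (0.342, 0.231 to 0.490) and Ccnb1 at 36.9 and 108 CPM (0.342, 0.270 to 0.427). In the rest of the library Plk1 and Ccnb1 stood at 0.450 and 0.440 of their E15.5 level.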

How the data were processed

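Droplet 3′ libraries (10x Genomics, version 2 chemistry per the labels' protocols) gave counts of UMIs per gene and barcode; these counts were deposited by the authors, who name Cell Ranger, Seurat 2.3.4 and build mm10 in the submitters' processing notes. Sources used here do not give the Cell Ranger version or the barcode calling. Kept cells had 200 or more genes and no more than 10% mitochondrially encoded UMIs, which removed 93 of 1997 E18.5 barcodes. No doublet caller was run, and doublets are treated as still present. The members and the gene lists were chosen with earlier results of these data known. UMIs were summed per group and divided by the group's total to give CPM. Shares have exact Clopper-Pearson intervals, levels exact Poisson intervals and ratios exact conditional binomial intervals, at 95%, computed with Python 3.11.15, NumPy 2.4.6, SciPy 1.17.1 and pandas 2.3.3. Called genes have a ratio of at least 2 and at least 20 UMIs. Against 0 UMIs a bound with 3 UMIs in the whole group is given. The scripts were tested on simulated data. Named are the 5 markers Col2a1, Acan, Ucma, Fmod and Prg4, for each comparison the 10 widest ratios in each direction among called genes with at least 100 UMIs, not all of which are described, and members of 22 program and 13 cell type lists, all 632 of whose entries were found. Symbols are those of the files; promoter sequences are from RefSeq on GRCm38.p6. The median gene shifted by -0.02 to -0.08 (log2) in the 4 comparisons. Alternatives changed the Col2a1, Acan, Ucma and mitochondrial limits, the scaling, the UMI minimum and the cells included.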

Additional observations from a re-analysis of the deposited data

How the results depend on the processing

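No paired analysis was possible because each stage is 1 library and no result comes from a test over samples; for the same reason no replicate could be left out. Of 1072 gene ratios under the alternatives, 893 stayed within the interval of the value reported, 168 moved beyond it and 11 turned direction; 37 calls were lost. The share of Ucma-high cells was 52.0% with a limit of 5 UMIs and 33.8% with 20. With at least 100 UMIs per gene fewer genes enter, and the counts higher and lower were 1013 and 1553 against the rest, 41 and 34 in Ucma-high cells, and 338 and 543 higher against E15.5 and E13.5. Called genes in Ucma-high cells were 127 higher and 142 lower among the 87 members with Xist and no Y-linked UMI, 197 higher and 135 lower among the 95 with the reverse, and 110 higher and 211 lower without each gene's top cell, of which 90 and 162 are called with all cells too. The log2 ratios that turned, all Ucma-high over Ucma-low, were Acta2 at -0.90 and Myl9 at -0.41 without the 5% deepest cells, S100a9 at -0.023 without cells holding other markers, Myl9 at -0.65 and Prg4 at -1.49 (called lower) among members with Xist only, Acta2 at -0.75, Myl9 at -0.40 and S100a9 at -0.015 without the top cell, and Ccdc80 at 0.19, Ppa1 at 0.11 and Smpd3 at 0.68 against Ucma-low cells without Col10a1 or Ihh. Apart from the genes carried by 1 cell, whose values without it are given above, the cause was not tested. The 269 cells limit genes under about 20 UMIs.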

Other observations

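HOX genes were looked at after their values were seen and belong to no list above. Of 9 protein-coding HOX genes with at least 20 UMIs in the chondrocytes, Hoxa11 and Hoxc10 were called higher in Ucma-high cells, Hoxd13, Hoxd11 and Hoxa7 lower, and Hoxa5, Hoxa9, Hoxa10 and Hoxd10 were not called. Over all 7583 genes of this split 2.55% were called higher and 3.32% lower. Hoxd13, a factor of the autopod, had 32 UMIs in 16 Ucma-high cells (13.9%, 8.17 to 21.6%) and 152 UMIs in 88 Ucma-low cells (57.1%, 48.9 to 65.1%), a ratio of 0.257 (0.170 to 0.378), and with cells thinned to 3000 UMIs the shares were 8.11% of Ucma-high, 30.5% of Ucma-low and none of 107 blood cells, where a limit of 3 counts allows up to 2.80%. Hoxd11 followed the same side with 10 and 36 UMIs (0.339, 0.150 to 0.697), Hoxa7, no gene of the autopod, had 6 and 21 UMIs (0.349, 0.115 to 0.893), a call lost without its top cell, and Hoxa13, also a gene of the autopod, had 3 and 14 UMIs, under the minimum for a call. Hoxa11, a factor of the zeugopod, lay on the other side with 87 UMIs in 50 Ucma-high cells and 44 UMIs in 31 Ucma-low cells (2.41-fold, 1.66 to 3.55), and so did Hoxc10 with 41 and 8 UMIs (6.25-fold, 2.89 to 15.4). The antisense partner of Hoxa11, Hoxa11os, had 63 and 38 UMIs (2.02-fold, 1.33 to 3.11). The strand setting of the counting is not stated, and whether reads of Hoxa11 and its partner were mixed was not tested. In the E15.5 split by Ucma the ratios were 0.0935 (0.0303 to 0.219) for Hoxd13, 0.207 (0.0423 to 0.615) for Hoxd11, 1.68 (1.14 to 2.41) for Hoxa11 and 1.41 (0.978 to 1.99) for Hoxc10. Hoxd13 was also lower against Ucma-low cells without Col10a1 or Ihh, at 0.229.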
